A study of Caenorhabditis elegans with 2 samples.

Results

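Small nucleolar RNA (snoRNA) genes with a summit at their start, in a pooled list of tagged HLH-17 peaks and background, are described here. They were 131 of the 346 snoRNA genes in the Ensembl annotation of the Caenorhabditis elegans genome (WBcel235, the assembly named ce11). The 131 were chosen by measured values, since each has a summit of the pooled peak list between 1000 bp upstream and 300 bp downstream of its annotated start. The tagged protein, an Olig-like bHLH transcription factor made in head glia, was recovered by chromatin immunoprecipitation and sequencing (ChIP-seq) with an antibody against green fluorescent protein. The worms were strain OP643, in which the array wgIs643 supplies hlh-17 joined to the TY1, EGFP and 3xFLAG tags together with unc-119(+), in an unc-119 (tm4063) background. They were whole first-stage larvae of 6 h, of mixed sex and starved after bleaching, in 2 biological replicates that form 1 group.

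All worms carried the tagged protein from a transgene, which adds copies of hlh-17 to the genome. The whole larva was used, so the number of cells bound and the strength of binding in each cannot be told apart. With 1 group there was no comparison between conditions, and no test was made of values that chose the genes. The deposited lists held 30000 pooled peaks, 30000 peaks for each replicate and 115 thresholded peaks. By its deposited name the pooled list holds peaks and background, as input for the thresholding. A pooled summit, called a peak here for short, is therefore not by itself a called binding site. Of the 131 genes, 5 had a thresholded summit in the window. Depth is unknown because the lists carry no read numbers. Peaks were ranked by the authors' signal value within each list, rank 1 being the highest. Its scale differs between lists.

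snoRNAs are short RNAs that guide chemical changes of ribosomal RNA in the nucleolus. C/D snoRNAs, held by fibrillarin and its partners, guide methylation of the ribose, and H/ACA snoRNAs, held by the pseudouridine synthase dyskerin, guide the change of uridine to pseudouridine. Many snoRNA genes lie within introns of other genes, called host genes, whose products often serve ribosomes, while others have starts of their own.

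The stretches at a pair of the members with thresholded peaks show where the summit fell. They are read from the reference on the strand of the snoRNA gene, with the gene in capitals. In ZK994.7 (chrV:8500515-8500660, plus strand) the summit is base 16, upstream of the gene, which spans bases 65 to 131. In smy-2 (chrIV:9511179-9511478, minus strand) the summit is base 288, past the gene, which spans bases 13 to 84.
ZK994.7: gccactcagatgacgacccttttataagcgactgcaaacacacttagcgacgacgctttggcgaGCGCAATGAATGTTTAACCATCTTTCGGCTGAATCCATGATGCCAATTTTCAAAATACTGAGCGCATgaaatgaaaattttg
smy-2: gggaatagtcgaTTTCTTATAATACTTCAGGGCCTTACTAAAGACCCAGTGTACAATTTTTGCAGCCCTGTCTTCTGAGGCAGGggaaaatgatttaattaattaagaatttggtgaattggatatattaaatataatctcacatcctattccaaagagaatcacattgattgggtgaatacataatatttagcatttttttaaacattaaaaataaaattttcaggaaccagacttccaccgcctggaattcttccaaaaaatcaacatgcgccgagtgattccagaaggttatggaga

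The next 4 genes show the boxes by which the classes of snoRNA are known, in members whose summit lay in the gene or within 18 bp of its start. Capitals mark TGATGA (box C) and CTGA (box D), or ANANNA (box H) and ACA before the end. C51F7.3 (chrV:12303708-12303783, plus strand) and W03C9.9 (chrII:11960898-11960959, plus strand) hold boxes C and D. K07C5.11 (chrV:10352710-10352836, minus strand) and R166.7 (chrII:10545199-10545329, minus strand) hold boxes H and ACA. The summit at W03C9.9 had pooled rank 2982 and rank 3409 in replicate 1, and was not found in replicate 2.
C51F7.3: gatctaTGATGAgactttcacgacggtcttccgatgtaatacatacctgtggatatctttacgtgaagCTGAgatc
W03C9.9: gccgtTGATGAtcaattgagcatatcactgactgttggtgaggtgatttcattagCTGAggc
K07C5.11: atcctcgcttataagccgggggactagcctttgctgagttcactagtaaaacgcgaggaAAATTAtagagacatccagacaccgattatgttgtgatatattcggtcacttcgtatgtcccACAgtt
R166.7: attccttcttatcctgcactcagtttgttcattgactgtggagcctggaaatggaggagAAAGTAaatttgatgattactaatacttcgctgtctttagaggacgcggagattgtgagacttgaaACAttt

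The share of snoRNA genes with a summit was not far from that of other genes. A pooled summit lay in the window of 131 of 346 snoRNA genes (37.9%, exact Clopper-Pearson 95% interval 32.7 to 43.2), against 31.5% of all 46890 genes. By type the share ran from 25.1% of piRNA genes to 41.2% of ncRNA genes, and it was 32% for protein-coding genes. The snoRNA share lies inside that range. At the upstream edge of the window lay F11A10.9, with its summit at -990 bp from the start (rank 20323), and first outside it M7.15 (-1009 bp, rank 504). At the downstream edge lay T19C4.11 (297 bp downstream, rank 4291), and first outside it T08B6.64 (316 bp downstream, rank 1018). The lowest rank of a member was 29232, at T26A8.6.

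The summits at snoRNA genes stood higher in the pooled list than those at other genes. The best summit of each member had a median rank of 6580 (quartiles 1502 and 15304), with signals from 56.7 through a median of 84.5 to 209. For all 14752 genes with a summit in the window the median rank was 13864, and for the 6400 protein-coding genes it was 14358. Other types had medians from 11937 (miRNA genes) to 15769 (pseudogenes), so the snoRNA median was the best placed among the 10 types that have 100 genes or more. The first 1000 pooled peaks held the best summit of 24 members (18.3%, 12.1 to 26), against 4.63% of all genes with a summit. The first 5000 held that of 55 members (42%, 33.4 to 50.9), against 19.4%. High places were not particular to snoRNA genes: 26.9% of the 52 small nuclear RNA (snRNA) genes with a summit had it in the first 1000. These values come from the list that chose the genes and are given as a description. Neighbouring genes can share a summit: the 131 members had 125 distinct best summits, 6 of them shared by 2 members, and the median rank of the 125 was 6846.

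**Figure D1:**
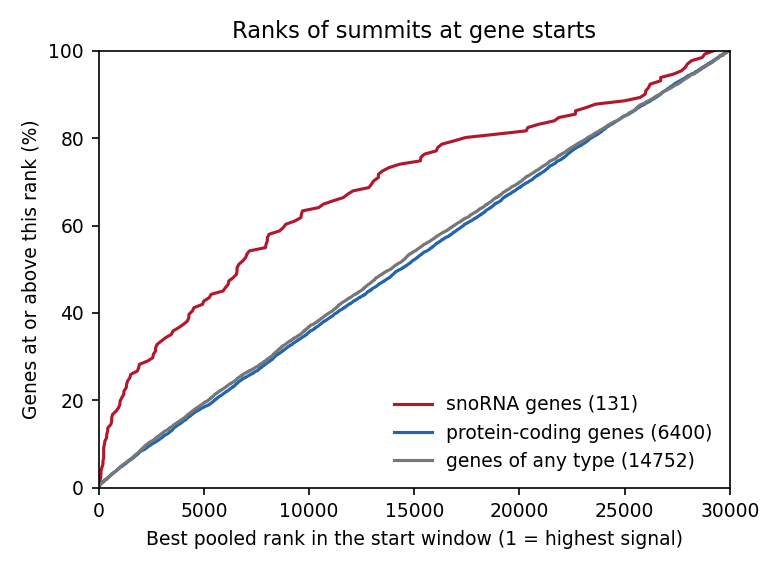
Cumulative share of genes (vertical axis, percent) by the rank of their best pooled summit in the start window (horizontal axis, 1 is the highest signal), for 131 snoRNA genes, 6400 protein-coding genes and 14752 genes of any type. The snoRNA curve lies above both others over most of the range, with 42% of its genes within rank 5000 against 19.4% of genes of any type.

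The strongest member was ZK994.7, within an intron of pxn-1, which encodes a peroxidasin of the extracellular matrix. Its summit lay at -49 bp, upstream of its start (V, peak 8500338 to 8500721, ce11), with a pooled signal of 209 and rank 35. It ranked 72 in replicate 1 and 35 in replicate 2, high in both. The same summit also lay in the start window of a tRNA gene. F59C6.15, which stands alone, followed with rank 47 (I, peak 10516799 to 10517182; signal 187) and a summit inside the gene, 159 bp from its start. Its ranks were 41 and 63 in replicates 1 and 2. The summit also lay in the start window of the protein-coding gene F59C6.18, and the nearest start of any gene was that of an ncRNA gene, 41 bp away.

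Another 3 members had thresholded peaks. The summit at smy-2, in an intron of C33A12.3, lay 275 bp downstream of its start (IV, peak 9510999 to 9511382), with signal 149 and rank 99. It ranked 260 and 204 in replicates 1 and 2, and also lay in the start window of C33A12.4. F58D5.11 and F58D5.12 shared a single summit of rank 109 (I, peak 12043395 to 12043778; signal 147), which lay 254 bp downstream of the start of the former and at -238 bp from the latter, both overlapping exons of F58D5.5. It ranked 222 in replicate 1 and 346 in replicate 2. Thus 5 members (3.82%, 1.25 to 8.68) had a thresholded summit in the window, against 0.902% of all genes with a summit and 13.5% of snRNA genes with one. These 5 were also the members whose summit ranked within the first 500 of both replicates. The 115 strongest peaks of replicate 1 alone touched 7 snoRNA genes and those of replicate 2 alone touched 2.

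Below the thresholded peaks, several strong members ranked high in 1 replicate only. Y37E3.20, in an intron of the phospholipid synthesis gene pcyt-2.1, had rank 148, with rank 1005 in replicate 2 and no summit within 100 bp in replicate 1. K11H12.12 and K11H12.13, both H/ACA by their boxes, lie in introns of rpl-15, which encodes a protein of the large ribosomal subunit. They shared a summit of rank 203 that ranked 24 in replicate 1 but 25118 in replicate 2, and it lay at -352 bp from the start of rpl-15 itself. R166.7, in an intron of the kinase gene mnk-1, had pooled rank 1009 and rank 116 in replicate 2, and was not found in replicate 1. The summit shared by C51F7.4 and C51F7.3, in the gene frm-7, had rank 619, and ranked 25198 in replicate 1 and 188 in replicate 2. Y67A10A.14, which stands alone, had rank 427 with rank 499 in replicate 1 and was not found in replicate 2. C09H10.19, overlapping an exon of nbs-1, a gene of DNA break repair, had rank 945 with ranks 20882 and 811. Its summit lay in the start window of nbs-1.

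Others had a summit in both replicates at ranks no lower than 6664. F25H2.15, which stands alone, had rank 581 with ranks 817 and 796, and F48A9.6, in an intron of the bZIP factor gene let-607, had rank 383 with ranks 1378 and 2036. F47G4.9, alone and with its summit 13 bp inside the gene, had rank 272 with ranks 1327 and 456. T02E1.9, overlapping an exon of spe-12 on the other strand, had rank 662 with ranks 2535 and 1518. Y53F4B.48, with rank 437, ranked 322 and 2019, and F52G3.6, with rank 376, ranked 4787 and 688. F56C9.12, in the protein phosphatase 1 gene gsp-2, had rank 295 with ranks 4236 and 398, and its summit lay at -930 bp from it, 375 bp past the start of gsp-2. C07A9.14, in an intron of ncx-7 on the other strand, had rank 827 with ranks 422 and 6664.

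The pooled summits of members were present in both replicates together at a higher share than those of all genes. A summit within 100 bp of the best pooled summit was present in replicate 1 for 86 members (65.6%, 56.9 to 73.7), against 48.7% of all genes with a summit. In replicate 2 it was present for 101 (77.1%, 68.9 to 84), against 71.1%, which lies inside that interval. Both replicates had it for 62 members (47.3%, 38.5 to 56.2), against 29.3% of all genes with a summit and 47.4% of the 38 antisense RNA genes with one. A further 24 were found in replicate 1 alone, 39 in replicate 2 alone and 6 in neither: K10D3.10, Y23H5B.10, C06E7.95, D2023.18, B0213.18 and K10G6.11, of ranks 7930 to 27887, which were named after their values were seen. The pooled list was made from the same reads, so recovery and choice are not independent. Across the 62 members found in both, the ranks in the replicates had a Spearman's rho of -0.006. These 62 were selected on the pooled signal, and both replicates share a control, so the value is a description. In 20 of the 62 the ranks differed by more than a factor of 10.

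**Figure D2:**
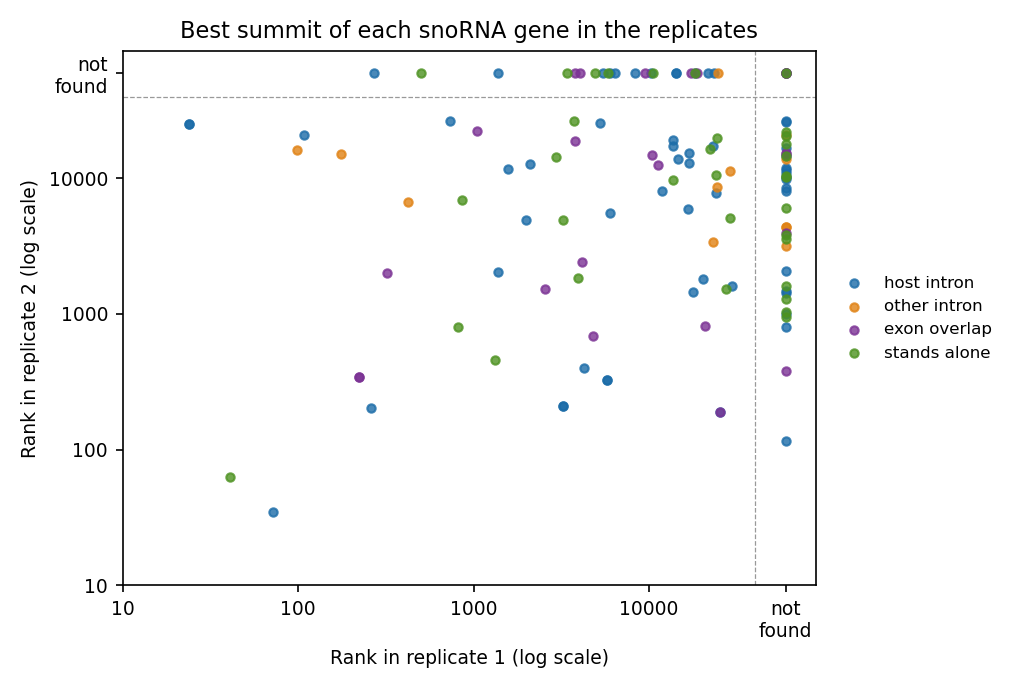
Best rank of a summit within 100 bp of each member's best pooled summit in replicate 1 (horizontal) and replicate 2 (vertical), both log scales. Each point is 1 gene, coloured by location class. Points beyond the dashed lines were not found within 100 bp. The 62 members found in both are spread widely, and ZK994.7 and F59C6.15 stand at the lower left, high in both replicates.

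A choice made in a single replicate leaves the other as an unused measure. With the list of replicate 1 alone, 150 snoRNA genes had a summit in the window, and 58 of these summits (38.7%, 30.8 to 47) were found in replicate 2, against 27.7% of 14741 genes of any type so chosen. With the list of replicate 2 alone, 129 had one, and 60 (46.5%, 37.7 to 55.5) were found in replicate 1, against 28.2% of 14651. Among those of rank 5000 or better in the replicate that chose them, 31 of 55 (56.4%, 42.3 to 69.7) and 27 of 48 (56.2%, 41.2 to 70.5) were found in the other. The shares for genes of any type were 40.2% (38.4 to 42) and 43.9% (42.1 to 45.8), so that the lower bound in replicate 2 lay below the general share. The lists share a control. In all, 92 snoRNA genes had a summit in the window in both replicate lists, and 83 of them were members. The median rank at snoRNA genes was 7786 in replicate 1 and 9895 in replicate 2, against 13608 and 13876 for genes of any type.

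The best summits lay near the snoRNA start more often than at the starts of all genes or of protein-coding genes. Closeness was not particular to snoRNA genes. The median position was -103 bp for members, -27 bp for snRNA genes with a summit and -324 bp for all genes with one. Of the members, 65 (49.6%, 40.8 to 58.5) had the best summit between 100 bp upstream and 300 bp downstream of the start, against 34.7% of all genes with a summit and 37.6% of protein-coding genes. In 19 members (14.5%) the summit lay inside the gene and in 51 (38.9%) inside it or within 100 bp of it, so others near the start lay past the gene's end. The snoRNA's own start was the nearest of any gene for 89 members. This count, and the shares inside the gene or within 100 bp of it, were not computed for other genes. They cannot be called high or low. The 65 near the start had a median rank of 3533 and 40 of them (61.5%, 48.6 to 73.3) were found in both replicates. The 25 with a summit more than 100 and up to 500 bp upstream had a median rank of 13074 and 6 found in both (24%, 9.36 to 45.1), and the 41 farther upstream a median rank of 7161 and 16 found in both (39%, 24.2 to 55.5).

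Summits were also counted by distance around all 346 snoRNA starts. The rule leaves genes that are no members without a pooled summit in the window, so the pooled values there come from the members and are a description. The replicate lists did not choose the genes but hold the same reads. From the start to 400 bp downstream, a span set after the values were seen, the first 5000 pooled peaks gave 0.253 summits per kb per gene (Poisson 95% interval 0.176 to 0.352). From 1 to 2 kb on either side they gave 0.0809 (0.0611 to 0.105). In replicate 1 the values were 0.195 (0.129 to 0.284) and 0.0882 (0.0674 to 0.113), and in replicate 2 they were 0.246 (0.17 to 0.343) and 0.065 (0.0474 to 0.087). Around protein-coding starts the pooled values were 0.061 (0.0557 to 0.0666) and 0.0491 (0.0469 to 0.0513). With all 30000 pooled peaks the snoRNA values were 0.462 (0.356 to 0.591) and 0.335 (0.294 to 0.381), a smaller contrast. With all 30000 peaks of each replicate they were 0.499 (0.388 to 0.631) and 0.354 (0.311 to 0.401) in replicate 1, and 0.571 (0.452 to 0.711) and 0.332 (0.291 to 0.378) in replicate 2. In that full list of replicate 1 the fullest bin of 200 bp was not at the start: it held 39 summits from 1200 to 1400 bp downstream, against 37 from 0 to 200 bp.

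**Figure D3:**
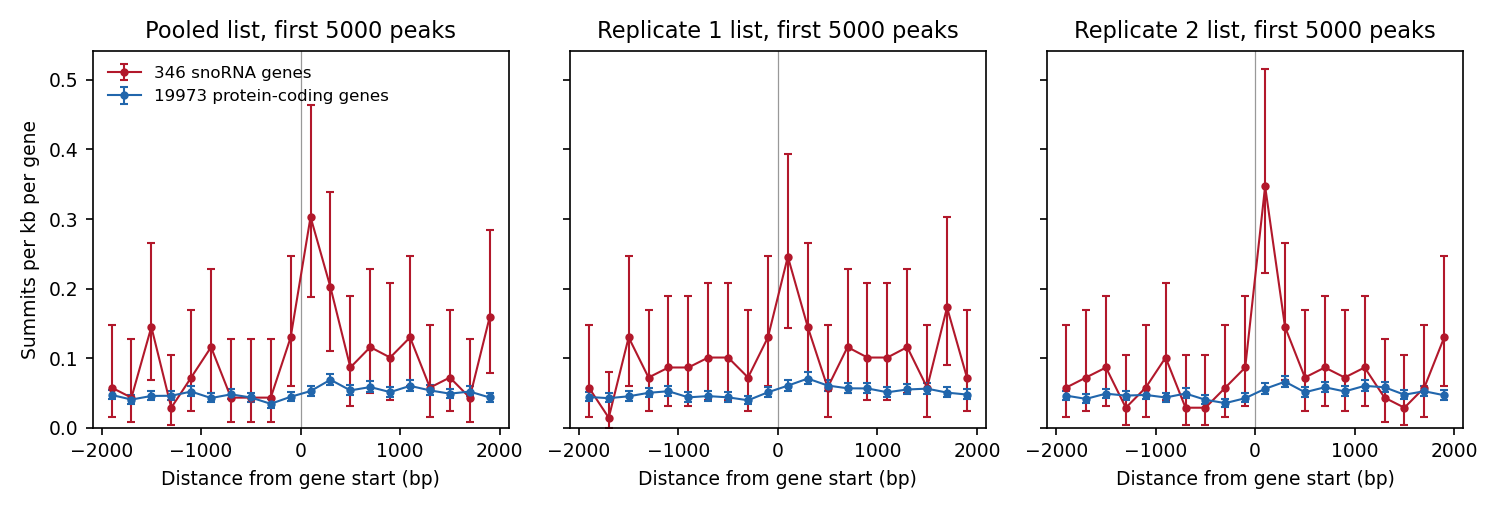
Summits per kb per gene (vertical axis) in bins of 200 bp by distance from the gene start (horizontal axis, bp, downstream positive), for the first 5000 peaks of the pooled list and of each replicate; error bars are Poisson 95% intervals. In each panel the snoRNA genes have their highest value in the bin just downstream of the start, while the protein-coding genes stay below 0.1.

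Members lay in host introns about as often as the snoRNA genes without a summit. An intron of a protein-coding gene on the same strand held 60 of the 131 members (45.8%, 37.1 to 54.7) and 90 of the 215 others (41.9%, 35.2 to 48.8). Of the members, 34 stood alone (26%, 18.7 to 34.3), against 74 of the others (34.4%, 28.1 to 41.2). Another 25 members overlapped an exon of some other gene, 11 of them an exon of a protein-coding gene on the same strand, and 12 lay in other introns, which were all on the opposite strand of a protein-coding gene. Read by class, a summit was present at 40% of genes in host introns (32.1 to 48.3), 40% in other introns (22.7 to 59.4), 43.1% with an exon overlap (30.2 to 56.8) and 31.5% of those that stand alone (22.9 to 41.1). The intervals overlap, and no difference between classes was tested.

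Ranks spread widely within each class. The median rank was 6232 in host introns (from 35 to 28808), 6530 in other introns (827 to 28175) and 6382 for genes that stand alone (47 to 29232). It was 11631 with an exon overlap (109 to 27887). Both replicates had the summit for 30 of 60 members in host introns (50%, 36.8 to 63.2) and 14 of 34 that stand alone (41.2%, 24.6 to 59.3). The median position of the summit was -43 bp from the start in host introns and -372 bp for those that stand alone. The best members that stand alone were F59C6.15, F47G4.9, Y67A10A.14 (rank 427), F25H2.15 and T27A8.8 (rank 1203). Standing alone means no overlap with another gene, and the first 4 of these summits also lay in start windows of protein-coding genes (F59C6.18, hmg-6, fbxa-83 and pas-5). In all, the summits of 16 of the 34 lay in such windows, a share not computed for all pooled summits.

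**Figure D4:**
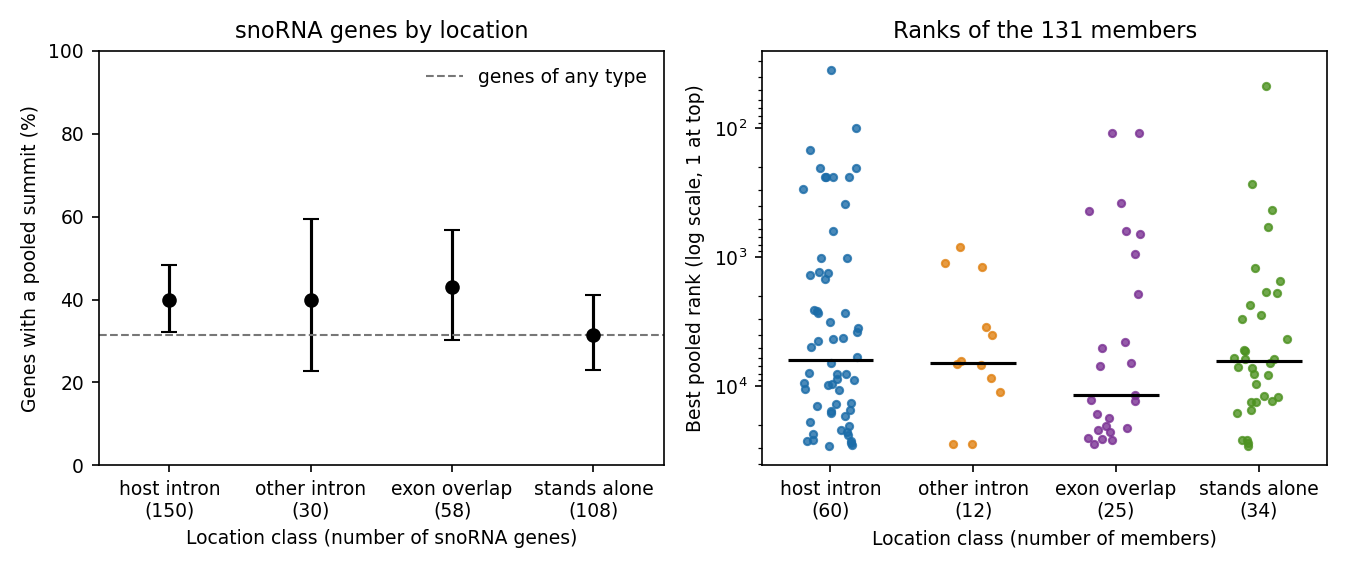
Left, share of snoRNA genes with a pooled summit in the start window (percent, exact 95% intervals) by location class, with the 31.5% of genes of any type as a dashed line. Right, best pooled rank of each of the 131 members (log scale, rank 1 at the top) with class medians as bars; each class holds ranks from within the first 1000 to 27887 or beyond.

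The start of the host gene was near for part of the members. In 15 of the 60 in host introns the summit also lay in the start window of the host itself. The same share was not computed for other genes in introns. Where a snoRNA gene starts close to its host's start, as K07C5.11 does at 142 bp, the windows of both overlap. The host nol-56 encodes a core protein of C/D snoRNA particles and holds K07C5.11 and K07C5.12, both H/ACA by their boxes. They shared a summit of rank 238 (3234 in replicate 1, 210 in replicate 2), which lay inside K07C5.11 and 207 bp downstream of the start of nol-56. Y37E3.21 and Y37E3.22 in Y37E3.8 shared a summit of rank 240 (5763 and 326), which lay inside the former and in the windows of Y37E3.8 and rla-1, a gene of the ribosomal stalk. The genes F58D5.5 (rank 109), rpl-15 (203) and frm-7 (619), described above, also held 2 members at a shared summit. Both members in F58D5.5, and C51F7.4 in frm-7, overlap exons and are not among those in host introns. In the other 3 hosts with 2 members the summits were lower in the list. They had rank 26718 in rpl-7A (shared by Y24D9A.9 and Y24D9A.10), ranks 10675 and 28808 in the elongation factor gene eef-1G (F17C11.14 and F17C11.15), and ranks 15314 and 15480 in the splicing factor gene prp-8 (C50C3.13 and C50C3.14).

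Over all members, 48 (36.6%, 28.4 to 45.5) had their best summit in the promoter window of some protein-coding gene. The same share was not computed for all pooled summits or for other genes, so 36.6% cannot be called high or low. The 48 are described as a group. Their median rank was 4370, with 24 found in both replicates. The 83 outside such windows had a median rank of 7958, and 38 were found in both (45.8%, 34.8 to 57.1). The general median of 13864 covers genes with summits inside and outside such windows. No median was computed for other genes outside them. Ribosomal protein genes hosted 11 members in 9 genes, of the 19 snoRNA genes they hold in introns (57.9%, 33.5 to 79.7), against 40% of all snoRNA genes in host introns, which lies inside that interval. The ranks ran from 203 (rpl-15) through 2577 (D1007.20 in rpl-24.1) and 3533 (F28C6.11 in rpl-26) to 26718 (rpl-7A). The chaperone gene hsp-1 holds F26D10.24, with rank 1309, 270 in replicate 1 and not found in replicate 2. Its summit lay at -759 bp from it, 328 bp past the start of hsp-1. The best summit in the start window of hsp-1 was another, of rank 88. F26D10.24 has a second copy in the genome. Copies were sought for the gene and not for the place of the summit, so whether this value is affected is unknown.

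A family of 5 near-identical genes had a summit at each of its genes. F59C6.15, Y67A10A.14, F25H2.15, T19C4.11 and F43A11.8 match over at least 90% of their length at 90% identity or more, directly or through each other. Their best summits had ranks 47, 427, 581, 4291 and 7161, and 4 of the 5 lay 159 to 297 bp downstream of the start, whereas that at F43A11.8 lay at -698 bp. Reads from such copies cannot always be placed, and how the authors treated them is not given in the sources used here, so the values at these genes are uncertain. A second family of 4 genes had no summit at any of them. In all, 15 of the 131 members (11.5%, 6.55 to 18.2) had a second genome copy, as did 41 of all 346 snoRNA genes, a similar share. The other 116 members had a median rank of 6563, with 56 found in both replicates (48.3%, 38.9 to 57.7).

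Boxes placed as in textbook snoRNAs were found in few of the annotated genes. TGATGA in the first 30 bases together with CTGA in the last 20 was present in 15 of 346 genes (4.34%), and 8 of these were members (53.3%, 26.6 to 78.7). ACA exactly 3 bases before the end, with ANANNA at least 40 bases from either end, was present in another 49 (14.2%), of which 24 were members (49%, 34.4 to 63.7). Only the sense strand was searched, since these are parts of the RNA. Of the 282 genes with neither pattern 99 were members (35.1%, 29.5 to 41). The median ranks were 3992, 3668 and 7043 for the members of these classes. Annotated ends may differ from those of the mature RNA, so a gene with neither pattern has no class here.

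E-boxes (CANNTG, the same on both strands), to which proteins of this family bind, were not more frequent at these summits. One lay within 50 bp of 43 of the 125 distinct member summits (34.4%, 26.1 to 43.4), against 38.5% of all pooled summits. Among summits of rank 5000 or better it was 17 of 50 (34%, 21.2 to 48.8), against 38.8%. The median GC content of these windows was 42.6% for members and 40.6% for all pooled summits.

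Of 15 genes listed for snoRNA particles, their processing or the nucleolus, 5 had a pooled summit in the start window. That share is close to the 32% of protein-coding genes, and none of the 5 was thresholded. They were nol-56 (rank 238, at the summit described above), nola-3, an H/ACA protein gene that overlaps C25A1.16 (rank 914), the nucleolin-like nucl-1 (2320), ncl-1 (22981) and the exonuclease gene xrn-2 (23302). The fibrillarin gene fib-1, nol-58, snu-13, the dyskerin gene dkc-1 and garr-1 were among the 10 without one. Of these 5, only the summit at nol-56 was found in both replicates. Of 9 genes for the small nuclear RNA activating complex and basal factors, 2 had a pooled summit, snpc-4 (rank 9435) and tbp-1 (rank 25427).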

How the data were processed

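ChIP-seq of HLH-17 was analysed from peak lists in 2 biological replicates. Per the deposited notes, each replicate list and the pooled list (both replicates together) were called against the same control, and the thresholded list was derived from the 3 lists. The signal value of each peak was deposited by the authors, on a scale that is not stated. Which aligner and peak caller were used is not stated by the labels or notes. Summits were the deposited summit offsets on ce11, and the peaks of all 4 lists ended within the WBcel235 chromosome lengths. Genes came from Ensembl release 115.

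Summits were assigned to start windows, and sought in each replicate within 100 bp, with Python 3.11.15, pandas 2.3.3 and scipy 1.17.1. The window, recovery and host functions were checked on made-up data. A host intron holds the whole snoRNA gene. Copies were sought with BLAST 2.17.0. Intervals on shares treat genes as independent and cover counting error of genes only, since depth is unknown.

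Members and lists were chosen with earlier results of these data known. Genes were named by rule: members with thresholded summits, the 25 best pooled ranks, the 5 best of each main location class, members within the first 500 of both replicates, window edges, hosts with 2 or more members and the snoRNA particle list. Genes named beyond that rule, such as those in families or single hosts, were chosen after their values were seen, as were the rank limits of 1000 and 5000 and the search for families. C25A1.16, taken at first for another name of nola-3, is a separate gene and was left out of the particle list, and garr-1 was matched through its locus tag. Alternatives covered the window, the distance for recovery, the rank limit, the host definition, the summit taken and each replicate left out.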

Additional observations from a re-analysis of the deposited data

How the results depend on the processing

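No paired analysis was possible because the 2 replicates form 1 group. The number of snoRNA genes with a summit was 131, and 129 to 150 with only 1 replicate. It was 59 with summits within 100 bp of the gene, 83 with a pooled rank up to 10000 and 24 up to 1000. The median rank, 6580, was 7786 to 9895 in the lists of single replicates, and from 4528 to 7958 under the 6 other alternatives. Recovery in both replicates, 47.3%, was 35.1% within 50 bp, 57.3% within 200 bp, 61.8% by overlap of peaks and 91.7% for members of rank 1000 or better. Recovery in replicate 1, whatever replicate 2 held, was 65.6%, and in replicate 2, whatever replicate 1 held, it was 77.1%. Thresholded members, 5, fell to 2 with summits within 100 bp of the gene, and were 2 to 7 by the 115 strongest peaks of 1 replicate. The share in host introns, 45.8%, was 57.6% with summits within 100 bp of the gene and 55% with either strand, and 44.2 to 52% with 1 replicate. The share in protein-coding windows, 36.6%, was 23.5% with 500 bp upstream and 50.5% with 2000 bp. The choice by 1 replicate, and the values without second copies or without protein-coding windows, were added after seeing the data. Unknown depth limits every list, and summits below a list's last rank are not seen.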

Other observations

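The share of snoRNA genes with a pooled summit ran from 27.8% on chromosome III (15 of 54) and 30.3% on X (10 of 33) through 36.6% on II, 39.2% on I and 41.8% on V to 47.5% on IV (28 of 59). The 10 members on X had a median rank of 5630, with 7 found in both replicates, and the 15 on III a median rank of 12848, with 5 found in both. Differences between chromosomes were not tested, and the shares of genes of any type by chromosome were not computed. Of the 215 snoRNA genes without a summit in the window, 194 had a pooled summit within 5000 bp of the start, at a median of 1563 bp. The same share was not computed for genes of any type. Pooled summits numbered 0.312 per kb from 1 to 2 kb on either side of protein-coding starts, so a summit within 5000 bp of a start is common in this list.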
